A study of Homo sapiens with 2 samples.

Results

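NRF2, its inhibitor KEAP1, 6 genes that NRF2 is known to control, the cystine transporter gene SLC7A11 and the polyamine enzyme gene SAT1 were followed in H1299 cells with and without p53. They were found by gene symbol: each of the 10 genes had 1 probe set of its own, out of 33297 probe sets that named 18417 genes. H1299 cells come from a human lung carcinoma of the non-small cell type and make no p53, a transcription factor of the stress response. Total RNA of cells with p53 and of cells labelled negative control was hybridised to Affymetrix arrays, 1 array per group. The labels do not state how p53 was supplied, for how long, or what the negative control received. The study's title links p53 and 5-hydroxymethylcytosine, an oxidised form of methylated cytosine, to gene regulation.

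NRF2, encoded by NFE2L2, is a transcription factor that binds the antioxidant response element (ARE) together with small MAF proteins. In unstressed cells KEAP1 hands NRF2 to the CUL3 ubiquitin ligase for destruction, and oxidants or electrophiles acting on KEAP1 let NRF2 build up. NRF2 is thus controlled largely as a protein, which arrays of RNA do not measure. Its targets make glutathione, rebuild thioredoxin, detoxify quinones and break down haem. SLC7A11 imports the cystine from which glutathione is made and is known both as an NRF2 target and as a gene that p53 can repress, while SAT1, an enzyme of polyamine breakdown, is known as a gene that p53 can induce. Both have been tied to ferroptosis, a cell death driven by oxidised lipids.

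The ARE core was searched as TGACNNNGC on both strands of the RefSeq windows (GRCh38.p14) that run from 250 bases before to 50 bases after a gene's start. Windows were at hand for 8 of the 10 genes, in 10 windows, and SLC7A11 and HMOX1 had none in the table used. The core was found for GCLM and KEAP1, 2 of the 8 genes, in 1 window each. Counted by window, that is 2 of 10, beside 13.3% of all 35116 windows. GCLM and KEAP1 hold the same 9 letters, TGACTAAGC when read along the motif, which lie 34 bases before the start of GCLM and 31 bases before 1 of the 2 starts of KEAP1. The same KEAP1 window holds another core, TGACACGGC, 54 bases before that start. The shared match is shown with 10 bases on each side, read along each gene, with the core in capitals:
GCLM, chr1:93909446-93909474, minus strand: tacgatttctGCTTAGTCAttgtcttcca
KEAP1, chr19:10502784-10502812, minus strand: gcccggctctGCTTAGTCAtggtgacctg
Neither stretch held TGANTCA, a core of the overlapping AP-1 type, which occurred in 7.71% of all windows and in none of those of the 8 genes.

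The 250 bases before the start are shown for GCLM and for the genes with the largest differences in each direction, SAT1 and SRXN1, again with the ARE core in capitals:
GCLM, chr1:93909431-93909680, minus strand: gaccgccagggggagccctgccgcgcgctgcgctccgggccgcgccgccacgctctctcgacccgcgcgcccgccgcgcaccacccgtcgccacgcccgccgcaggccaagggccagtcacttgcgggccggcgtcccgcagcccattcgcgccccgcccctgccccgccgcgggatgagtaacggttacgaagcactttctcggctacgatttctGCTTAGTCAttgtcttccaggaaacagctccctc
SRXN1, chr20:653201-653450, minus strand: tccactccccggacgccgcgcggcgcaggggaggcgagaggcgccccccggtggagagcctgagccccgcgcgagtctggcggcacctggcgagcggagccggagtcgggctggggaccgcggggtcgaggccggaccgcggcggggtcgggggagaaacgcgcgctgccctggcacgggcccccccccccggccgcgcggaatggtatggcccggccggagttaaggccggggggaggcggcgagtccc
SAT1, chrX:23782923-23783172, plus strand: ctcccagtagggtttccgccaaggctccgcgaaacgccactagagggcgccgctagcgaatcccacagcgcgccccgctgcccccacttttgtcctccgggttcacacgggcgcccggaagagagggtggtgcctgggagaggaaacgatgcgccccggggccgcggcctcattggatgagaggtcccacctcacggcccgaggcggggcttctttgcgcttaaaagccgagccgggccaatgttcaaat
G and C made up 72.4% of the stretch in GCLM, 80.4% in SRXN1 and 66.4% in SAT1, a share not taken over all windows. None of the 3 stretches held the p53 half-site motif, which was found in 6.63% of all windows. Among the 8 genes, only the window of GCLC held it, starting 30 bases after the start of that gene. A match describes letters and not binding, and the windows leave out more distant elements.

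Values are log2 intensities from the authors' robust multi-array average (RMA), and differences are the log2 intensity with p53 minus that in the negative control, so that 1 on this scale is 2-fold. With 1 array per group there is no replicate error and no test, and every difference describes these arrays. The median over all probe sets and both arrays, 7.38, served as an intensity filter, and all 10 genes lay above it. Where a gene had a pair of unequal probe sets above the filter (291 genes), the standard deviation between their differences, from the median absolute deviation, was 0.103, a spread between probes of the same arrays that holds no variation between cultures. CDKN1A, a classical p53 target used as a check of the p53 label, had 12.66 with p53 against 9.18 in the control. Of the 8 epithelial and mesenchymal markers, 5 were above the filter (KRT8, KRT18, KRT7, VIM and CDH2), whereas KRT19, EPCAM and CDH1 lay below it. Blood cell markers were above the filter in 2 of 9 cases, ITGAM and CD68, the latter at 11.01 with p53 and 11.40 in the control. Fibroblast and endothelial markers were above it in 1 of 11 cases, COL1A1, whose arrays held equal values.

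SAT1 alone of the 10 genes was at least 2-fold higher with p53, and none was at least 2-fold lower. Over every gene measured, 5.22% were at least 2-fold higher and 3.7% at least 2-fold lower, and above the filter the shares were 8.21% and 5.79%, so 1 of 10 is close to the background. Of the 10 differences, 5 were above 0 and 5 below, with a median of 0.02 beside 0.00 over every gene. At 1.5-fold, 2 of the 10 were higher and 1 lower, against 9.4% and 10.1% of every gene. At 3-fold 0 were higher, against 2.47%, although SAT1 passed 3-fold with the intensity trend removed. These shares cover every gene, whereas all 10 lay above the filter, where 13.6% had a higher difference than HMOX1 (1.55-fold). The differences ran from -0.91 for SRXN1 to 1.57 for SAT1. Both NFE2L2 and KEAP1 lay near 0, and the targets fell on both sides of it.

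**Figure D1:**
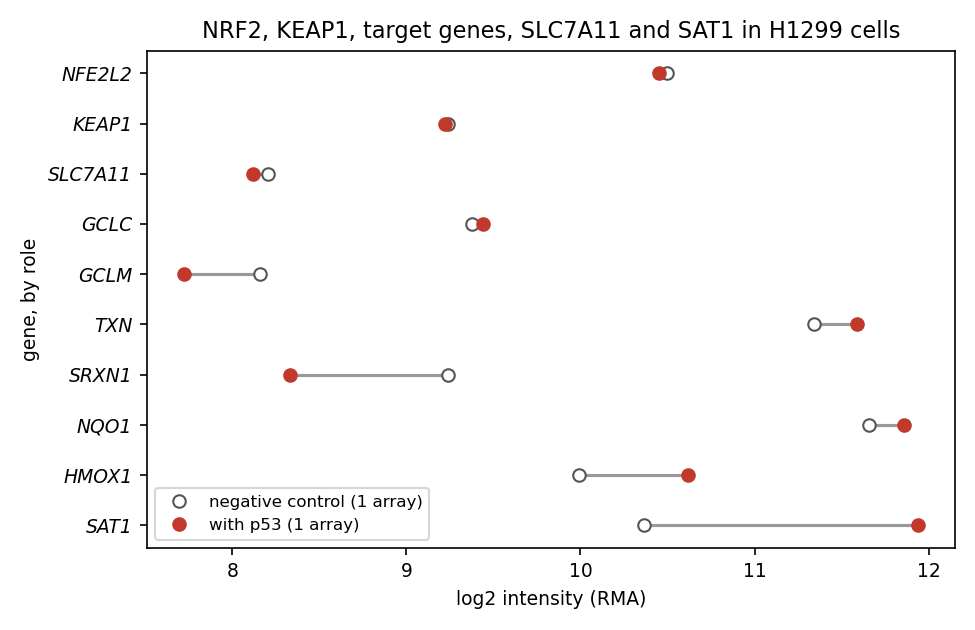
The log2 intensity of each of the 10 genes (horizontal axis) is plotted with p53 (filled) and in the negative control (open), 1 array each and hence without error bars; the line joins the 2 arrays. The points nearly coincide for NFE2L2 and KEAP1, SAT1 has the longest line to the right (10.37 to 11.94) and SRXN1 the longest to the left (9.24 to 8.33).

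The regulator and its inhibitor came first. For NFE2L2 the log2 intensity was 10.45 with p53 and 10.49 in the control, which gives a difference of -0.04. For KEAP1 it was 9.22 with p53 and 9.24 in the control, which gives -0.02. Of the genes above the filter, 78.7% had a larger absolute difference than NFE2L2 and 82.1% a larger one than KEAP1. Both differences were smaller than the spread between probe sets of a gene, and both turned positive, to 0.06, when a trend on intensity was removed, so they carry no direction.

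Cystine import and glutathione synthesis were next. SLC7A11, the light chain of the cystine and glutamate exchanger, had 8.12 with p53 against 8.21 in the control. The p53 array was thus lower by 0.09 on the log2 scale (a 1.06-fold lower level), which is also less than the spread between probe sets. Of the genes above the filter, 42.9% had a lower difference than SLC7A11, which places it near the middle. GCLC, the catalytic subunit of the first enzyme of glutathione synthesis, was at 9.44 with p53 compared with 9.38 in the control, a difference of 0.06. GCLM, its modifier subunit, was at 7.72 with p53 compared with 8.16 in the control, a difference of -0.44. GCLM was thus 1.35-fold lower. The GCLC difference (1.04-fold higher) was smaller than the spread between probe sets (0.103) and carries no direction.

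The thioredoxin genes differed in direction. TXN, the small redox protein that reduces peroxiredoxins and other proteins, stood at 11.59 with p53 compared with 11.34 in the control, a difference of 0.25. SRXN1, sulfiredoxin, which repairs overoxidised peroxiredoxins, stood at 8.33 with p53 compared with 9.24 in the control, a difference of -0.91. It was 1.88-fold lower with p53, the lowest of the 10 genes and just short of the 2-fold threshold. Of the genes above the filter, 7.09% had a lower difference than SRXN1 and 22.3% a higher one than TXN.

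NQO1 and HMOX1, both widely used as reporters of NRF2 activity, were both above 0. NQO1, a quinone reductase, stood at 11.86 with p53 compared with 11.66 in the control, a difference of 0.20 (1.15-fold). HMOX1, the enzyme that opens the haem ring, stood at 10.62 with p53 compared with 9.99 in the control, a difference of 0.63 (1.55-fold). HMOX1 was the higher of the pair in difference, with 13.6% of the genes above the filter beyond it, against 24.1% for NQO1.

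SAT1, the acetyltransferase that marks spermidine and spermine for breakdown and export, had 11.94 with p53 against 10.37 in the control. The difference of 1.57, a 2.98-fold higher level, was just short of a 3-fold threshold, which SAT1 passed (3.16-fold) with the trend removed. Of the genes above the filter, 4.02% had a higher difference. SAT1 thus stood well away from the other 9 genes, of which HMOX1 came nearest.

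**Figure D2:**
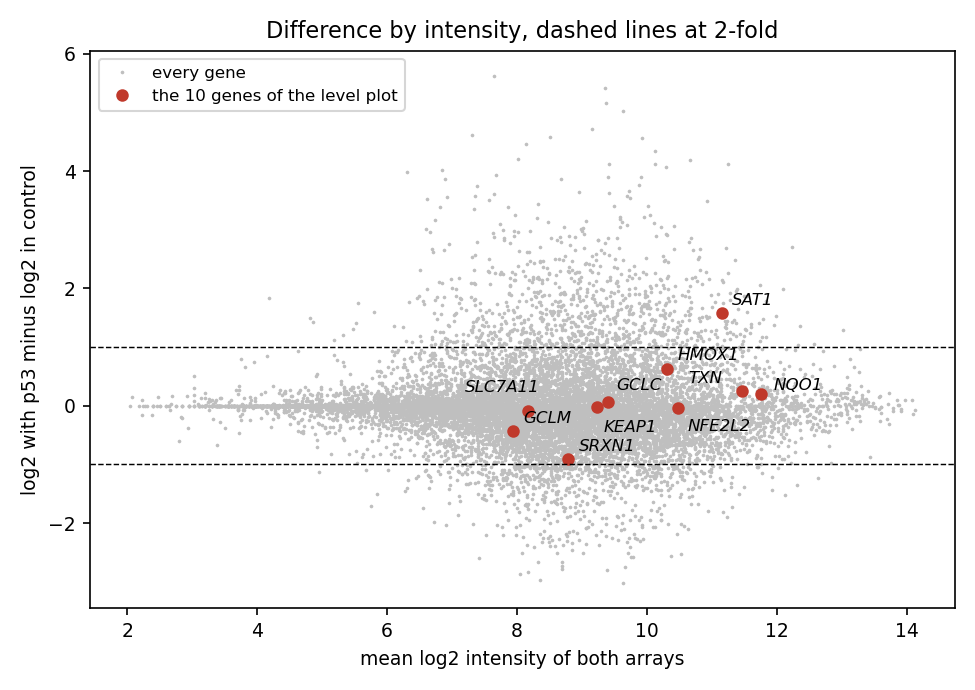
Each grey point is 1 of 18417 genes, with the mean log2 intensity of both arrays on the horizontal axis and the log2 difference (p53 minus control) on the vertical axis; red points are the 10 genes and dashed lines mark 2-fold. SAT1 (1.57) lies above the upper line, SRXN1 (-0.91) just inside the lower one, and the other 8 lie within the dense band of genes.

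The wider pathways were read through 7 lists of genes, which share members. Leaving out the 10 genes, they held 126 measured genes, of which 107 were above the filter. At least 2-fold higher were 19 (15.1%), beside 5.22% of every gene and 8.21% of those above the filter, and at least 2-fold lower were 6 (4.76%), beside 3.7% and 5.79%. These shares are also the background for the counts of each list given next. Equal values in both arrays were held by 28 of the 126 (22.2%), by 35.3% of every gene and by 14.6% of those above the filter. The median difference of these 126 genes was 0.00, as over every gene, but both medians fell among equal values. Of the 126, 46 were above 0 and 52 below, and of all 18417 genes, 4950 and 6963. Each list median of 0.00 given next also fell among equal values and does not measure a likeness to the background. Several of the higher genes are known p53 targets, and the lists were drawn up with earlier results of these arrays known.

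Among the regulators of NRF2, 2 of 18 measured genes were at least 2-fold higher and 0 lower; the median was 0.00. AMER1, a WNT pathway scaffold that can bind KEAP1, was 4.09-fold higher, at 9.66 with p53 against 7.62 in the control. GSK3B, a kinase that marks NRF2 for a KEAP1-independent route of destruction, was 2.39-fold higher, at 11.35 against 10.10. The direct partners lay within 2-fold: the ligase scaffold gene CUL3 differed by -0.43 and the small MAF gene MAFF by 0.19. MAFG, another small MAF, gave -0.53, -0.31 and -0.09 in its 3 probe sets. The related factor NFE2L1, the ARE repressor BACH1 and SQSTM1, the autophagy receptor that sequesters KEAP1, each had equal values in both arrays.

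Of 33 other NRF2 targets with a probe set of their own, 4 were at least 2-fold higher and 0 lower. Their median was 0.00, with 13 above 0, 16 below and 4 equal. The probe set that TRIM16L, another target, shares with TRIM16 is not counted and was more than 2-fold lower (-1.08). BLVRB, a biliverdin reductase, was 3.41-fold higher, at 11.56 with p53 against 9.79. ABCB6, a porphyrin transporter, was 2.46-fold higher, at 8.73 against 7.43, and ME1, the cytosolic malic enzyme that makes NADPH, was 2.14-fold higher, at 9.94 against 8.85. The remaining higher gene, AKR1B10, an aldo-keto reductase, stood at 6.42 and 4.67, below the filter in both arrays, and was named after its value was seen. TXNRD1, the reductase of thioredoxin, differed by -0.66 and GSR, the reductase of oxidised glutathione, by -0.49. PRDX1 (0.07), a peroxiredoxin, and FTL (-0.03), the ferritin light chain, lay near 0. Thus TXNRD1 lay on the side of SRXN1 and not of TXN.

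Genes with and without the ARE core near the start were also set side by side. Among measured genes with a window, 5.63% of 2610 with the core were at least 2-fold higher, against 5.48% of 11629 without it. The shares at least 2-fold lower were 3.22% and 4.14%. Both medians were 0.00, the value of genes that are equal in both arrays. Of 26 measured NRF2 targets of the list with a window, 11 held the core, beside 2610 genes with it and 11629 without it among all measured genes. Only ME1 and ABCB6 of the 11 were at least 2-fold higher. The others were not called and ran from -0.79 (GSTA4) to 0.92 (GSTP1), with TXNRD1 at -0.66.

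Glutathione and cystine genes beyond the 3 above gave 1 of 13 at least 2-fold higher and 1 lower, with a median of -0.19. CHAC1, which degrades glutathione, was 6.32-fold higher, at 10.62 with p53 against 7.96. GSS, the second enzyme of glutathione synthesis, was 1.94-fold higher, at 11.39 against 10.44, close to the threshold and past it with the trend removed (1.05). SLC3A2, the heavy chain that pairs with SLC7A11, differed by -0.19, and GPX4, which uses glutathione to reduce lipid peroxides, by -0.33. SLC1A5, a neutral amino acid transporter, was 2.10-fold lower by its brighter probe set (9.08 against 10.15), but a dimmer probe set gave -0.10 and the call was lost with the trend removed (-0.98). Synthesis genes thus differed in direction, with GSS above 0, GCLC near it and GCLM below.

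Of 19 other thioredoxin and peroxiredoxin genes, 2 were at least 2-fold higher and 0 lower, and the median was 0.00. Both were sestrins, stress proteins known as p53 targets. SESN1 differed by 3.77 on the log2 scale (13.7-fold higher) and SESN2 by 1.76 (3.39-fold higher). TXNIP, the inhibitor of thioredoxin, was listed at 6.15 in both arrays, below the filter.

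Haem and iron genes were split. Apart from HMOX1, 4 of 17 were at least 2-fold higher and 2 were at least 2-fold lower. FECH, the enzyme that inserts iron to make haem, was 3.82-fold higher, at 10.41 with p53 against 8.48. NCOA4, the receptor that sends ferritin to the lysosome, was 2.74-fold higher, at 12.06 against 10.61, and FDX1, a mitochondrial ferredoxin, was 2.06-fold higher (0.99 on the log2 scale, and so not called, with an offset of 32). BLVRB, described above, was the fourth, and the other measured haem synthesis genes were not called, with ALAS1 at -0.48, UROD at -0.32 and CPOX equal in both arrays. The lower ones were SLC11A2, an iron importer, 2.98-fold lower at 7.89 against 9.46, and STEAP3, an iron reductase, 2.01-fold lower, a call lost under 3 other scalings (-0.98 to -0.92). HMOX2, the constitutive haem oxygenase, differed by 0.07, and BLVRA, the other biliverdin reductase gene, by 0.47.

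SAT1 was accompanied by its paralogue among the polyamine genes. SAT2 stood at 9.71 with p53 compared with 8.18 in the control, a 2.89-fold higher level. ODC1, the first enzyme of polyamine synthesis, had 11.65 with p53 against 12.57 in the control, 1.88-fold lower and short of the threshold. ARG2, the arginase that supplies ornithine, was 12.7-fold higher, at 11.56 against 7.89, and MTAP, which salvages methylthioadenosine, was 2.09-fold lower, a call lost on removal of the intensity trend and with an offset of 32 (-0.99). In all, 2 of the 16 other polyamine genes were at least 2-fold higher and 1 lower, with a median of -0.06. SMOX, the oxidase that acts directly on spermine, differed by -0.12.

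In the ferroptosis list, 7 of 22 genes other than SLC7A11, HMOX1 and SAT1 were at least 2-fold higher and 2 were at least 2-fold lower, with a median of 0.00. Of all 25 measured genes of the list 8 had equal values, and the median of 0.00 fell among these. It was 0.12 over the 19 genes above the filter and 0.96 over the 14 at or above the 75th percentile. Both filters read the higher array, so a gene can enter through 1 array alone, and these medians do not measure a shift of the list. When the mean of the 2 arrays had to reach 7.38 instead, the median was 0.06 over 18 genes. Next to CHAC1 and NCOA4, the higher genes were PTGS2 (4.23-fold), the prostaglandin synthase used as a marker of this death, and LPCAT3 (3.98-fold), which loads polyunsaturated lipids into membranes. GCH1 (3.51-fold), AIFM2 (3.29-fold) and VDR (2.45-fold) were the others; GCH1 makes tetrahydrobiopterin, AIFM2 regenerates coenzyme Q, and VDR is the vitamin D receptor. The higher genes thus included both known promoters and known inhibitors of lipid peroxidation. PTGS2 and GCH1 were above the filter in the p53 array alone, with control values of 6.31 and 7.32. The lower genes were ACSL4 (2.07-fold), which prepares polyunsaturated fatty acids, and MBOAT1 (2.76-fold), a lysophospholipid acyltransferase. The ACSL4 call was lost with the trend removed (-0.97) or with the offset (-0.99). ALOX15, the lipoxygenase that has been linked to SAT1, was listed at 6.34 in both arrays, below the filter.

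**Figure D3:**
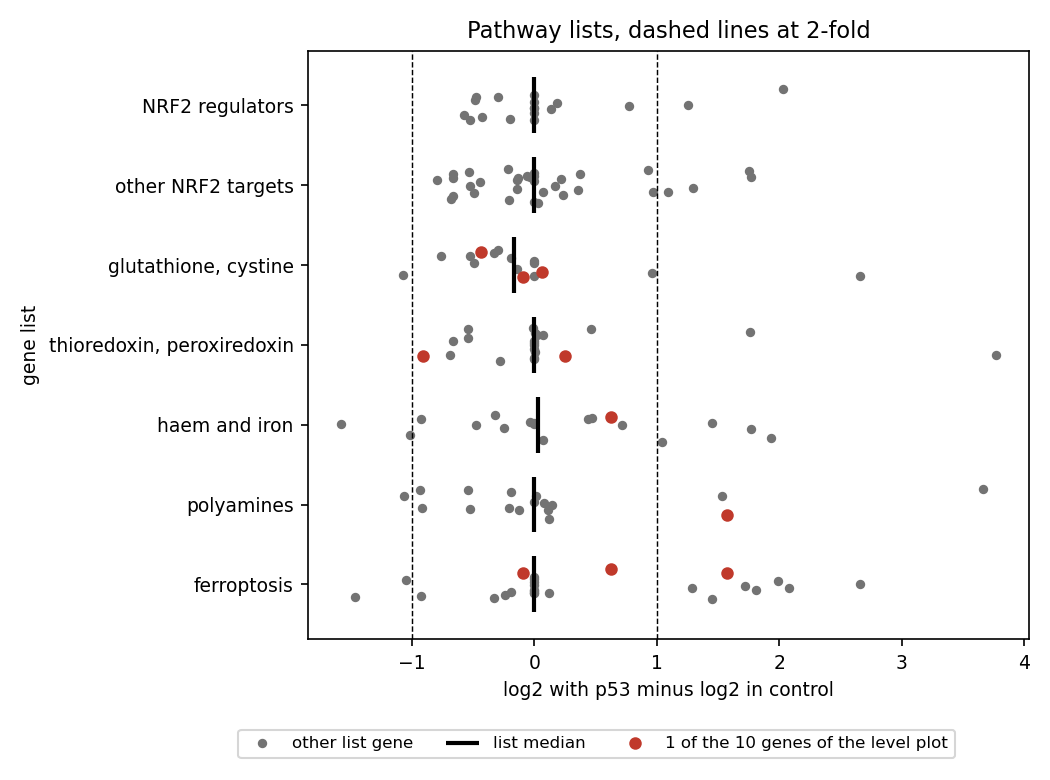
Each point is the log2 difference (p53 minus control, horizontal axis) of 1 measured gene in 1 of 7 gene lists (rows), with black bars at the list medians, red points for the 10 genes and dashed lines at 2-fold; vertical scatter within a row has no meaning. The medians lie between -0.16 and 0.03, while single genes reach -1.58 (SLC11A2) and 3.77 (SESN1).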

How the data were processed

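Per the labels, 2 arrays were hybridised with biotin-labelled total RNA isolated by Trizol. The deposited values are log2 intensities that the authors made with RMA, per the submitters' processing notes; the log2 scale was read from their range (1.41 to 14.68). RMA equalises the distributions of arrays, so a shift of total RNA per cell cannot be read. The array number limits precision. No source used here gives the software version or the genome build.

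Probe sets were named from GEO's platform annotation (1 symbol for 19460, several for 1754, none for 12083) and updated by gene identifier to RefSeq (19429 matched). The brightest probe set represented a gene. At least 2-fold is a rule of size. The members and lists were chosen with earlier results of these data known. Named genes were the 10 members, fixed partner genes, and list genes above the filter that differed at least 2-fold; other names, AKR1B10 and ALOX15 among them, were chosen after their values were seen, and some partner genes are not reported here. The 10 alternatives covered filters, thresholds, centring, lowess (span 0.3), probe set means, quantile normalization and an offset of 32. The calling rule was run on simulated differences set past the threshold, which checks the code and holds no variation between cultures. Python 3.11.15, numpy 2.4.6, pandas 2.3.3, statsmodels 0.14.6 and matplotlib 3.10.9 were used.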

Additional observations from a re-analysis of the deposited data

How the results depend on the processing

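The differences of the 10 genes moved by less than the spread between probe sets (0.103) under the 3 settings that changed them (lowess trend removed, quantile normalization and offset), with SAT1 between 1.55 and 1.66, SRXN1 between -0.91 and -0.84 and SLC7A11 between -0.09 and -0.05. NFE2L2 and KEAP1 changed sign when the lowess trend was removed, to 0.06 each. At 1.5-fold, 2 of the 10 genes were higher (SAT1 and HMOX1), beside 9.4% of every gene, and 1 was lower (SRXN1), beside 10.1%. At 3-fold, 0 were higher, beside 2.47%, although SAT1 reached 3.16-fold with the trend removed. These shares are without the intensity filter, which all 10 genes passed. The median of the 10 was 0.13 over the 8 genes at or above the 75th percentile, which left out SLC7A11 and GCLM. Of 196 recalculated counts and medians of the pathway lists, 28 moved, mostly counts of a few genes near a threshold. Beyond the thresholds, the listed genes whose calls changed with the scaling or the probe set rule were ACSL4, FDX1, MTAP, SLC1A5 and STEAP3, which were no longer called, and GSS and TKT (1.06), which passed 2-fold with the trend removed. No replicate could be left out. No paired analysis was possible because each group has 1 array.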

Other observations

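Several list genes were read only by probe sets that they share with another gene, so their values entered no count of differences. The probe set of TRIM16L, an NRF2 target, and TRIM16 had 9.09 with p53 against 10.17 in the control, a difference of -1.08, past 2-fold lower. That of CBS, the first enzyme of cysteine synthesis from homocysteine, had 8.40 with p53 against 9.38 in the control, a difference of -0.98. The probe set shared by TXNRD3, a thioredoxin reductase, differed by -0.65, and that shared by PIR, an NRF2 target, by -0.12. Those shared by EIF5A, of the polyamine list, differed by -0.39 to -0.33. Those shared by UGT1A6, an NRF2 target, and by HBA1, a blood cell marker, were equal in both arrays. In each case the signal cannot be divided between the genes named.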
